A study of Homo sapiens with 9 samples.

Results

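Aldehyde dehydrogenases oxidise aldehydes to carboxylic acids with NAD or NADP, and 10 genes of this family, chosen by name with ALDH1A1 at their head, were followed through a table of 45754 genes. All 10 were found by symbol: ALDH1A1, ALDH1A2, ALDH1A3, ALDH1B1, ALDH2, ALDH3A1, ALDH3A2, ALDH4A1, ALDH7A1 and ALDH9A1. The study sequenced RNA from cells labelled H441, a human lung adenocarcinoma line, in 3 groups of 3 libraries. Cells were exposed for 24 h to 0.1% DMSO as solvent control, to 10 µM BSGL or to 10 µM RSGL, compounds that the labels give by code name only. The line tag reads H441 in every library, but a genotype tag reads H460 for control and BSGL and A549 for RSGL. The labels therefore do not settle which line was sequenced. Separate cultures are not stated for the replicates, and p-values therefore cover only the variation among these samples, part of which may be technical.

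The family works at several places in the cell. ALDH1A1, ALDH1A2 and ALDH1A3 are cytosolic enzymes that turn retinaldehyde into retinoic acid, the ligand of the nuclear retinoid receptors, and ALDH1A1 and ALDH3A1 also remove aldehydes that arise when lipids are oxidised. ALDH2 and ALDH1B1 are mitochondrial enzymes that oxidise acetaldehyde, ALDH3A2 is a membrane enzyme for long-chain fatty aldehydes, and ALDH4A1, ALDH7A1 and ALDH9A1 serve the breakdown of proline, the breakdown of lysine and the synthesis of carnitine. In lung cancer, high ALDH1A1 is widely used to mark subsets of tumour cells.

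The largest change was a fall of ALDH1A1 and ALDH3A1 under RSGL, to 0.389 and 0.385 of their control FPKM, while ALDH1A3 rose to 1.72 of control. The regions before the starts of ALDH1A1, the most abundant member, and of ALDH1A3, the member that rose, are shown because these genes of closely related enzymes moved in opposite directions. Both are 250 bases on GRCh38.p14 from RefSeq, written 5′ to 3′ on the gene's strand, with the CCAAT motif in capitals. ALDH1A1 lies on the minus strand at chr9:72953054-72953303 and ALDH1A3 on the plus strand at chr15:100879581-100879830.
ALDH1A1: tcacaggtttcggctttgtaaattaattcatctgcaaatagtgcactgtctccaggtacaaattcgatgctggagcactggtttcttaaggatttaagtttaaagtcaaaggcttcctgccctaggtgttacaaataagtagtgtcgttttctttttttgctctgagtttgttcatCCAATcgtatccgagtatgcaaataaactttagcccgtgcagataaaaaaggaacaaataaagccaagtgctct
ALDH1A3: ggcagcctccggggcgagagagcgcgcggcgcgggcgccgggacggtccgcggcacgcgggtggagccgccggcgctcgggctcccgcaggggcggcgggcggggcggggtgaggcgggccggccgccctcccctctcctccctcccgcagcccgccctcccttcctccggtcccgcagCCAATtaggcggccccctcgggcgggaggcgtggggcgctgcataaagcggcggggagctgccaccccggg

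In both windows, CCAAT stands on the gene's own strand, with its first base 74 bases before the start in ALDH1A1 and 71 bases before it in ALDH1A3. The ALDH1A1 window has 38.4% G and C and 6 CG pairs, and the ALDH1A3 window 82.4% and 38, where the median of all 35116 such windows is 58% and 11. Of all windows, 10.1% have a lower share of G and C than that of ALDH1A1, and 98.6% a lower share than that of ALDH1A3. The table of windows holds 8 of the 10 genes, with 11 windows, and not ALDH2 or ALDH3A1. Searched on both strands, CCAAT is in 6 of these 11 windows and in 32% of all windows. TATAAA, the TATA box core, is in 10.7% of all windows, and TGACNNNGC, the core of the antioxidant response element, is in 10.9%. Neither was found in these 11 windows, which says only that these letters are not there. Whether the base content or motifs of the windows go with the changes was not tested.

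The deposited values are FPKM, fragments scaled to gene length and to the size of the library, so levels of different genes can be set side by side per length. The libraries held 16720414 to 18738947 fragments in genes. Markers of the lung lineage were largely missing: of 11 genes 1, the lipid transporter ABCA3, passed the filter described below, and NKX2-1 reached 0.0596 FPKM at most. The list summed to 6.34 to 7.47 FPKM in control, 6.25 to 6.57 under BSGL and 9.45 to 11.1 under RSGL. ABCA3 rose under RSGL from 4.92 to 9.25 FPKM against control (log2 0.79, limma adjusted p = 6.75e-06). General epithelial markers were present, with 4 of 5 passing and summed levels of 1065 to 1093 FPKM in control, 1056 to 1105 under BSGL and 740.9 to 778.5 under RSGL. Under RSGL the keratins KRT8 (651.1 to 427.9 FPKM) and KRT18 (416.0 to 324.7), whose genes overlap on opposite strands, and the cadherin CDH1 (8.01 to 5.19) fell against control, and the keratin KRT19 (2.05 to 4.07) rose. The adhesion gene EPCAM, the marker of the 5 that did not pass, stayed between 0.267 and 0.719 FPKM. A list of 12 genes typical of KEAP1-mutant lung lines passed in full. Under RSGL 2 rose and 10 fell against control. By the same calls, described below, 27.2% of all tested genes rose and 27.6% fell. The summed level of the 12 was 2304 to 2351 FPKM in control, 2160.0 to 2217 under BSGL and 1615 to 1677 under RSGL. Of fibroblast markers 3 of 8 passed, with summed levels of 9.95 to 11.4 FPKM in control, 10.4 to 11.1 under BSGL and 7.92 to 8.20 under RSGL. Of macrophage markers 2 of 6 passed, and the list summed to 42.2 to 42.7 FPKM in control, 46.6 to 47.8 under BSGL and 116.5 to 121.5 under RSGL. They went opposite ways: the lysosomal protein CD68, which is also made by epithelial cells, rose under RSGL from 40.2 to 118.8 FPKM, and CD14 fell from 2.11 to 0.346 FPKM (log2 -1.22, limma adjusted p = 1.3e-05). Of 6 endothelial and 6 T cell markers 0 passed. The part of these shifts, and of the identity of the cells, in the results below was not tested. In bulk RNA, fewer cells of a kind and less RNA per cell cannot be told apart.

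ALDH1A1 was by far the most abundant member. In control it stood at 1920.0, 1961 and 2001 FPKM, which placed it 15th to 17th among protein-coding genes, and its 87514 to 91192 fragments were 0.493 to 0.505% of all fragments in genes. The plot of levels by library shows it about an order of magnitude above ALDH3A1, the next member. The ratio of ALDH1A1 to ALDH3A1 was 9.04 to 9.61 in control, 9.42 to 9.98 under BSGL and 9.19 to 9.96 under RSGL, so these ranges overlapped across the groups. Below them in control came ALDH3A2 at 79.7 ± 1.49 FPKM (SD, n = 3), ALDH2 at 60.7 ± 1.47, ALDH9A1 at 32.5 ± 1.09 and ALDH1B1 at 30.8 ± 1.57. ALDH7A1 followed at 16.3 ± 0.877, ALDH4A1 at 4.76 ± 0.249 and ALDH1A3 at 3.46 ± 0.0528 FPKM.

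**Figure D1:**
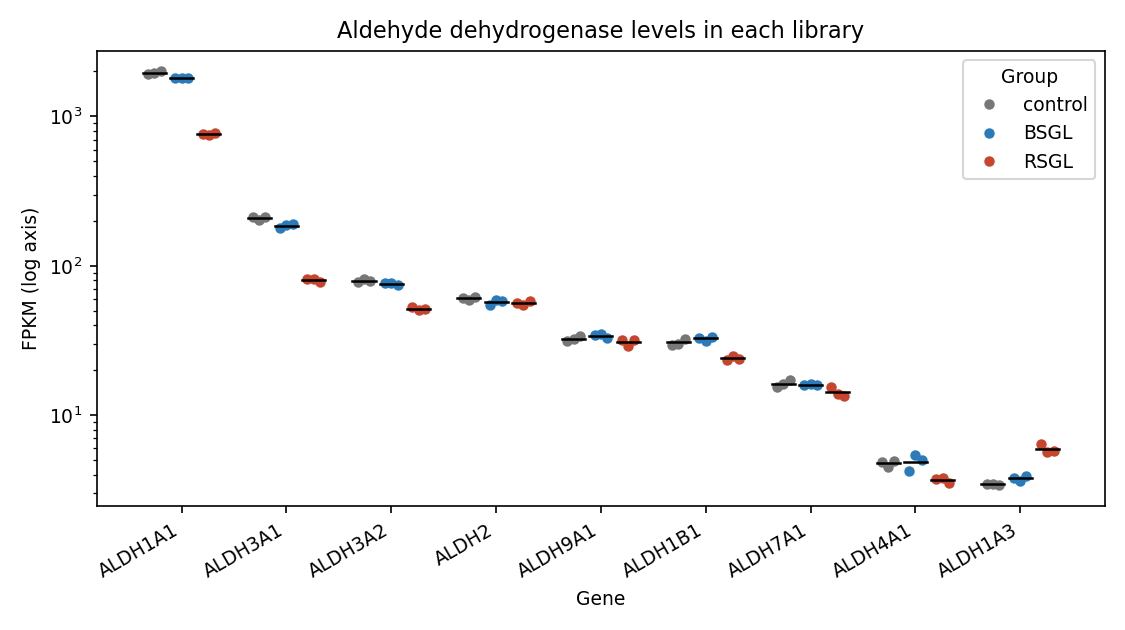
FPKM on a log axis for the 9 detected genes in each library, with points for single libraries, coloured by group, and a black bar for the group mean. ALDH1A1 lies between 746 and 2001 FPKM, above all other members in every library. The RSGL points of ALDH1A1, ALDH3A1 and ALDH3A2 lie below those of both other groups, and those of ALDH1A3 above them. ALDH1A2 is listed at 0 and cannot be drawn on this axis.

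The order of the members was the same in control and BSGL. In these groups neighbours in the order did not overlap between libraries, except ALDH9A1 and ALDH1B1, whose libraries overlapped. Under RSGL 2 pairs of neighbours changed places: ALDH2 at 56.5 ± 2.06 FPKM (SD, n = 3) stood above ALDH3A2 at 51.6 ± 1.59, and ALDH1A3 at 5.96 ± 0.42 above ALDH4A1 at 3.69 ± 0.141. There ALDH9A1 and ALDH1B1 were apart. ALDH1A2, a main source of retinoic acid in the embryo, was listed at 0 in all 9 libraries, where 3 fragments would have been worth 0.0394 to 0.0441 FPKM.

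Summed over the 10 genes, the level was 2398 ± 44.4 FPKM in control, 2215 ± 15.1 under BSGL and 1030 ± 18.9 under RSGL (SD, n = 3). This was 0.61 to 0.627% of all FPKM in control libraries and 0.253 to 0.266% in RSGL libraries. ALDH1A1 made up 81.5 to 82.0% of the sum in control, 81.3 to 81.7% under BSGL and 73.6 to 74.5% under RSGL. Without ALDH1A1 the sum was 437.4 ± 6.71 FPKM in control, 411.3 ± 7.6 under BSGL and 267.8 ± 4.93 under RSGL, and its 3 RSGL libraries lay below those of both other groups.

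**Figure D2:**
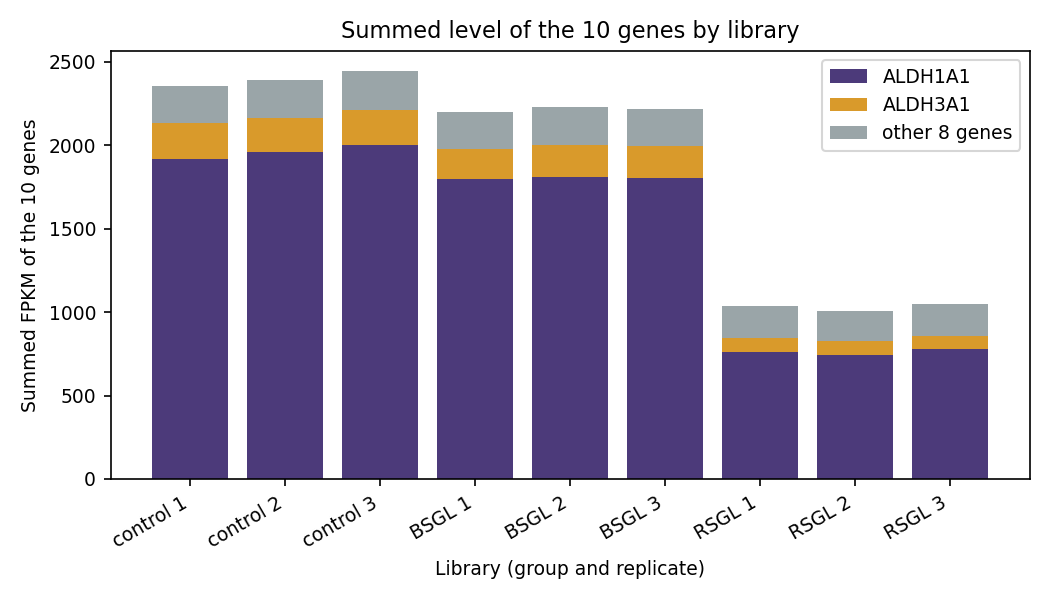
Summed FPKM of the 10 genes in each of the 9 libraries, stacked as ALDH1A1, ALDH3A1 and the other 8 genes. The control bars reach 2357 to 2445 FPKM, the BSGL bars 2198 to 2228 and the RSGL bars 1009 to 1046, with most of the difference in the ALDH1A1 segment.

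RSGL against control sets this compound beside the solvent. The genotype tag also differs between these groups, so compound and tagged line cannot be told apart here. Of the 10 genes 9 were tested, each having at least 3.40 FPKM in every library; 1, ALDH1A3, rose, 6 fell, and ALDH2 and ALDH9A1 did not pass. These calls are from limma on log2(FPKM + 1) with Benjamini-Hochberg adjustment over 12775 genes, those with at least 1 FPKM in at least 3 libraries, at an adjusted p under 0.05. The background of this comparison was high, with 54.8% of all tested genes called, 27.2% higher and 27.6% lower, and 61.2% with no overlap between the groups' libraries, against 7 and 8 of the 9 members. The median change of the 9 was -0.30 on the log2 scale, beside -0.00085 for all tested genes. A fall of at least 1 on this scale, which understates changes of low genes, was called for 1.42% of tested genes and for 2 of the 9, ALDH1A1 and ALDH3A1.

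Among the retinaldehyde enzymes, ALDH1A1 fell and ALDH1A3 rose. ALDH1A1 stood at 760.9, 746 and 779.7 FPKM under RSGL, against the control values of 1920.0 to 2001, and the groups were far apart. Its log2 change was -1.36 (SE 0.0278, 95% interval -1.42 to -1.30, limma adjusted p = 6.91e-10), which left it 63rd to 67th among protein-coding genes. Of the 12775 tested genes, 71 had a more negative change on this scale, which understates the falls of low genes beside that of an abundant gene. ALDH1A3 stood at 3.49, 3.49 and 3.40 FPKM in control and at 6.43, 5.64 and 5.80 under RSGL, so that every RSGL library lay above every control library. Its log2 change was 0.64 (SE 0.0529, limma adjusted p = 4.93e-06), from 233 to 247 fragments per library in control and 364 to 460 under RSGL. A lncRNA on the opposite strand overlaps ALDH1A3 and was at 0.374 FPKM at most. The ratio of ALDH1A1 to ALDH1A3 was 551 to 589 in control and 118 to 134 under RSGL.

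ALDH3A1 and ALDH3A2, both on chromosome 17, fell, by different amounts. ALDH3A1, a cytosolic enzyme for aromatic and medium-chain aldehydes that is abundant in the cornea, stood at 212.4, 204.2 and 210.8 FPKM in control and at 81.8, 81.1 and 78.3 under RSGL. No library of one group came near the other, and the log2 change was -1.37 (SE 0.0332, interval -1.44 to -1.29, limma adjusted p = 1.97e-09). ALDH3A2, in which mutations cause Sjögren-Larsson syndrome, stood at 78.2, 81.2 and 79.7 FPKM in control and at 53.4, 50.4 and 51.1 under RSGL. The groups did not overlap and the log2 change was -0.62 (SE 0.0325, limma adjusted p = 2.18e-07). The 95% intervals of the changes of ALDH3A1 and ALDH3A2, -1.44 to -1.29 and -0.69 to -0.54, did not overlap, though the difference itself was not tested.

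Of the mitochondrial acetaldehyde enzymes, ALDH1B1 fell and ALDH2 did not pass. ALDH1B1 stood at 29.6, 30.2 and 32.6 FPKM in control and at 23.6, 24.9 and 23.9 under RSGL, with no overlap (log2 -0.34, SE 0.0429, limma adjusted p = 0.000104). ALDH2, the main enzyme of acetaldehyde removal after ethanol, stood at 61.0, 59.1 and 62.0 FPKM in control and at 56.8, 54.4 and 58.5 under RSGL. Its RSGL libraries lay just below those of control, and its log2 change was -0.10 (interval -0.19 to -0.01, limma adjusted p = 0.0585). ALDH2 was called lower with a common sum (adjusted p = 0.0252), with a filter of 5 FPKM (adjusted p = 0.0489) and with limma-voom on fragments (adjusted p = 0.0385). Leaving out BSGL replicate 1 (adjusted p = 0.0439) or RSGL replicate 3 (adjusted p = 0.0394) also gave a call.

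Of the enzymes of amino acid and carnitine metabolism, ALDH4A1 and ALDH7A1 fell and ALDH9A1 did not pass. ALDH4A1, which makes glutamate from the product of proline oxidation, stood at 4.83, 4.48 and 4.96 FPKM in control and at 3.72, 3.81 and 3.53 under RSGL (log2 -0.30, SE 0.0759, limma adjusted p = 0.00792), with no overlap between the groups. ALDH7A1, mutated in pyridoxine-dependent epilepsy, stood at 15.5, 16.1 and 17.2 FPKM in control and at 15.4, 14.0 and 13.4 under RSGL. Its groups were separated by less than the spread within either, and its call (log2 -0.18, SE 0.0545, limma adjusted p = 0.0178) was lost without control replicate 3 (adjusted p = 0.0643), RSGL replicate 2 (adjusted p = 0.055) or RSGL replicate 3 (adjusted p = 0.062). ALDH9A1, which makes a precursor of carnitine, stood at 31.6, 32.2 and 33.7 FPKM in control and at 32.0, 29.3 and 32.1 under RSGL. These values overlapped, with a log2 change of -0.06 (interval -0.16 to 0.04, limma adjusted p = 0.266).

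**Figure D3:**
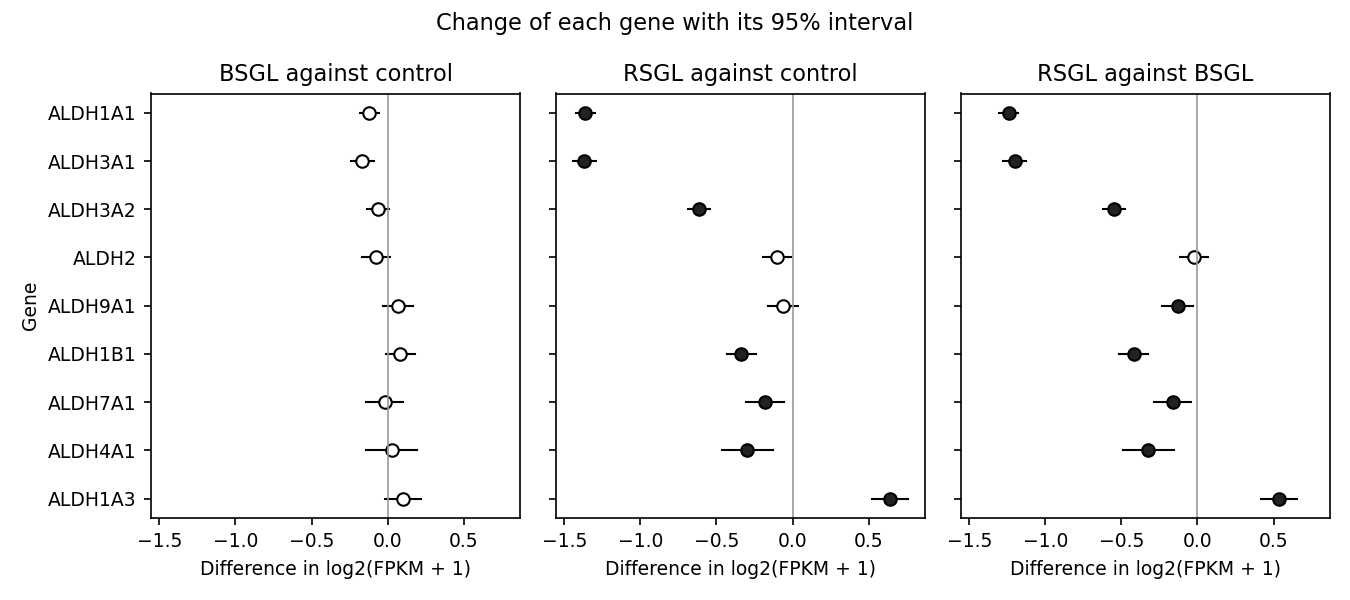
Difference in log2(FPKM + 1) for the 9 tested genes in each comparison, with 95% intervals of the limma fit. Filled circles passed an adjusted p under 0.05 and open circles did not. ALDH1A1 and ALDH3A1 lie at -1.36 and -1.37 for RSGL against control, ALDH1A3 at 0.64, and all 9 genes lie between -0.17 and 0.10 for BSGL against control.

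BSGL against control sets the other compound beside the solvent, with the same genotype tag in both groups. In this comparison 0 of the 9 tested members were called by limma with Benjamini-Hochberg adjustment, beside 0.0861% of all tested genes, and 2 had an unadjusted p under 0.05, ALDH1A1 and ALDH3A1, beside 6.71% of all tested genes. ALDH1A1 stood at 1796, 1812 and 1802 FPKM under BSGL, below each control library, with a mean of 0.92 of that in control. Its log2 change was -0.12 (interval -0.18 to -0.06, limma adjusted p = 0.316). ALDH3A1 stood at 179.9, 187.4 and 191.3 FPKM, also below each control library (log2 -0.17, interval -0.24 to -0.09, limma adjusted p = 0.223). With limma-voom on fragments recovered from the FPKM both passed as lower, ALDH1A1 at -0.13 (adjusted p = 0.0045) and ALDH3A1 at -0.18 (adjusted p = 0.00295). The number of members called was then 2 of 9, beside 31 of all 12775 tested genes.

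The other 7 tested members had log2 values between -0.08 and 0.10 under BSGL, with limma adjusted p-values of 0.812 to 0.98. ALDH3A2, at 76.6, 77.3 and 74.5 FPKM, lay below all control libraries, and ALDH1A3, at 3.82, 3.65 and 3.90 FPKM, above them. In all, 4 of the 9 had libraries apart from control, where 12.8% of all tested genes did. ALDH2 was at 54.8, 59.4 and 58.1 FPKM and ALDH1B1 at 33.0, 31.6 and 33.4, both overlapping control. ALDH9A1 was at 34.2, 35.1 and 33.1 FPKM, ALDH7A1 at 16.1, 16.2 and 15.9 and ALDH4A1 at 4.21, 5.46 and 4.99, and these overlapped control as well. The widest interval among the 9 was that of ALDH4A1, from -0.14 to 0.20 on the log2 scale.

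RSGL against BSGL sets the compounds side by side at 10 µM and 24 h. Here too the genotype tag differs between the groups, so compound and tagged line cannot be told apart. Of the 9 tested members 1 was higher under RSGL, ALDH1A3, 7 were lower, and ALDH2 did not pass, beside 54% of all tested genes called, 26.5% higher and 27.5% lower. The libraries of both groups were apart for 8 of the 9, beside 61.2% of all tested genes. ALDH1A1 was lower by a log2 difference of -1.24 (interval -1.30 to -1.18, limma adjusted p = 1.47e-09) and ALDH3A1 by -1.20 (interval -1.28 to -1.13, limma adjusted p = 4.54e-09). ALDH3A2 differed by -0.55, ALDH1B1 by -0.42 and ALDH4A1 by -0.32, and ALDH1A3 by 0.54 (SE 0.0529, limma adjusted p = 1.9e-05). For ALDH2 the difference was -0.02 with an interval of -0.11 to 0.07 (limma adjusted p = 0.67), which does not show that the compounds act alike on it. This comparison shares its RSGL libraries with the comparison of RSGL with control.

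The calls of ALDH7A1 and ALDH9A1 between the compounds were marginal. ALDH7A1 differed by -0.16 (SE 0.0545, limma adjusted p = 0.0293), and its call was lost without BSGL replicate 1 (adjusted p = 0.0655), 2 (adjusted p = 0.0743) or 3 (adjusted p = 0.0592) and without RSGL replicate 2 (adjusted p = 0.0825) or 3 (adjusted p = 0.0986). ALDH9A1 differed by -0.13 (SE 0.0444, limma adjusted p = 0.0306), and its call was lost without BSGL replicate 1 (adjusted p = 0.0721) or 2 (adjusted p = 0.102) or RSGL replicate 2 (adjusted p = 0.109).

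Of 9 other aldehyde dehydrogenase genes 6 passed the filter, and under RSGL 1 rose and 4 fell against control, with a median of -0.16, where 27.2% of all tested genes rose, 27.6% fell and the median was -0.00085. The riser was ALDH1L2, a mitochondrial enzyme of folate metabolism, from 3.33 ± 0.0116 to 8.20 ± 0.782 FPKM (SD, n = 3; log2 1.08, limma adjusted p = 3.67e-07). ALDH16A1 fell from 15.0 ± 0.487 to 9.28 ± 0.341 FPKM (log2 -0.64) and ALDH3B1, a membrane-bound member, from 81.4 ± 1.42 to 70.3 ± 2.02 FPKM (log2 -0.21). ALDH18A1, which works in the reductive direction in proline synthesis, fell from 30.4 ± 0.356 to 28.0 ± 0.91 FPKM (log2 -0.12, limma adjusted p = 0.0153). Under BSGL 0 of these 6 were called by limma against control, with 1 at an unadjusted p under 0.05, beside 6.71% of all tested genes, and limma-voom called 0.

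Of 21 genes that supply, bind or break down retinoids 11 passed the filter, and under RSGL 3 rose and 2 fell against control, with a median of -0.09. This share is near that of all tested genes, of which 54.8% were called. BCO1, which cleaves beta-carotene to retinaldehyde, fell from 3.47 to 0.833 FPKM (log2 -1.29, limma adjusted p = 8.57e-07), and STRA6, the receptor that takes up retinol, from 10.5 to 5.66 FPKM (log2 -0.80). DHRS9, a dehydrogenase of the retinol family, rose from 1.49 to 4.77 FPKM (log2 1.22, limma adjusted p = 1.33e-05), and RDH11, a retinaldehyde reductase, was at 44.0 and 46.9 FPKM (log2 0.09, limma adjusted p = 0.0412), a call that limma-voom did not make (adjusted p = 0.0675). FABP5, a carrier of fatty acids and retinoic acid, had 83.9 FPKM in control and 77.6 under RSGL (not called, limma adjusted p = 0.333). RDH13 was listed at 0 in all libraries, but its only entry lies outside the main chromosome sequences, so this does not show that its transcript is absent. The only entries of DHRS4, which passed the filter, and of the receptor gene RXRB, which did not, also lie outside them. Their levels are uncertain for the same reason.

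Of 13 receptors and targets of retinoic acid 10 passed the filter, and under RSGL 3 rose and 3 fell against control, with a median of 0.01, again near the 54.8% called among all tested genes. RARB, a retinoic acid receptor that is itself a known retinoic acid target, fell from 4.96 to 1.78 FPKM (log2 -1.10, limma adjusted p = 6.15e-07), and PLAAT4, a phospholipid-modifying enzyme known to be induced by retinoids, from 13.5 to 7.44 FPKM (log2 -0.77). TGM2, a transglutaminase that retinoic acid is known to induce, rose from 98.3 to 153.3 FPKM (log2 0.64, limma adjusted p = 5.09e-07). RXRA, the partner of the receptors, was at 11.3 and 10.4 FPKM (limma adjusted p = 0.0635) and was called lower by limma-voom (adjusted p = 0.0268). Under BSGL 0 of the genes in these 2 retinoid lists were called by limma or by limma-voom, beside 0.0861% of all tested genes in limma. In limma 0 and 1 had an unadjusted p under 0.05, beside 6.71% of all tested genes.

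**Figure D4:**
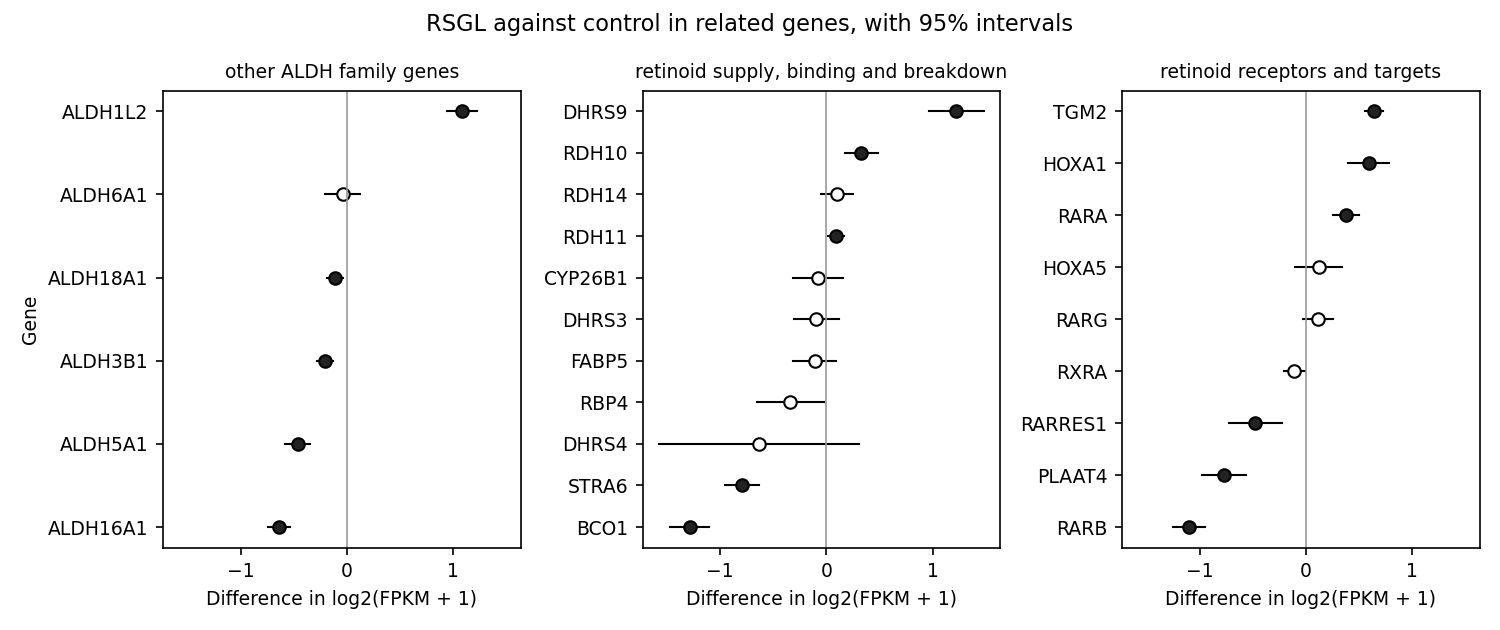
Difference in log2(FPKM + 1) between RSGL and control, with 95% intervals, for tested genes of the rest of the family, of retinoid supply and breakdown, and of retinoid receptors and targets. Filled circles passed an adjusted p under 0.05. ALDH1L2 and DHRS9 lie above 1, BCO1 and RARB below -1, and each panel holds genes on both sides of 0. DHRS3, which is in both retinoid lists, is drawn in the middle panel.

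Among enzymes that make aldehydes or work at neighbouring steps, MAOA and PHYH rose and PRODH2 and CHDH, choline dehydrogenase, fell under RSGL. Of 14 genes of alcohol and amine oxidation 4 passed the filter, and under RSGL 1, the monoamine oxidase MAOA, rose against control, from 2.79 to 4.37 FPKM (log2 0.50), where 54.8% of all tested genes were called. ADH5, which handles formaldehyde, was at 44.3 FPKM in control and 45.2 under RSGL, and CAT, catalase, at 36.5 and 35.5, and neither passed. Of 9 genes of steps next to the members 6 passed the filter, with 1 higher and 2 lower, which is near that share. PRODH2, a dehydrogenase of hydroxyproline whose product goes on to ALDH4A1, fell from 6.75 to 1.91 FPKM (log2 -1.42, limma adjusted p = 1.21e-06). PHYH, of peroxisomal alpha-oxidation, rose from 17.3 to 22.95 FPKM (log2 0.39). SGPL1, which makes a long-chain aldehyde that ALDH3A2 oxidises, had 15.2 FPKM in control and 15.8 under RSGL, and HACL1, also of alpha-oxidation, 15.0 and 14.1, and neither was called. Under BSGL 0 of the 4 and 0 of the 6 were called by limma or by limma-voom, beside 0.0861% of all tested genes in limma. In limma 1 and 0 had an unadjusted p under 0.05, beside 6.71% of all tested genes.

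The genes whose pattern was most like that of ALDH1A1 were sought among tested protein-coding genes outside the 10. Likeness was the root mean square distance between log2(FPKM + 1) values, each gene centred on its own mean over the 9 libraries. The nearest was EGLN3, a hypoxia-sensing prolyl hydroxylase (distance 0.0544), at 7.04 FPKM in control, 6.25 under BSGL and 2.14 under RSGL. GCLC, the catalytic subunit of glutathione synthesis (0.0549), was at 74.7, 64.8 and 27.4 FPKM in the same order. C9orf3, a peptidase gene (0.0564), was at 9.19, 8.36 and 2.68 FPKM. AKR1B10, an aldo-keto reductase that reduces retinaldehyde (0.0589), was at 373.5, 347.5 and 140.3 FPKM, and the transcription factor TBX18 (0.0665) at 9.57, 8.58 and 3.32 FPKM. The 1 FPKM added before the log shrinks changes of low genes more than those of ALDH1A1. The distances of EGLN3, C9orf3 and TBX18 therefore depend on it. In FPKM without this addition, these genes fell under RSGL by a larger factor than ALDH1A1. Since all 5 were chosen for this likeness, their values are a description.

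On GRCh38, as the deposited table gives them, ALDH1A1 (gene ID 216) lies on chromosome 9 at 72900662 to 72953317 and ALDH1B1 (219) on the same chromosome at 38392664 to 38398665. ALDH1A3 (220) and ALDH1A2 (8854) lie on chromosome 15, at 100879692 to 100916626 and 57953424 to 58065923. ALDH3A1 (218) and ALDH3A2 (224) lie on chromosome 17, at 19737984 to 19748433 and 19648136 to 19677596. ALDH4A1 (8659) and ALDH9A1 (223) lie on chromosome 1, at 18871430 to 18902799 and 165662212 to 165698663. ALDH2 (217) lies on chromosome 12 at 111766887 to 111809985 and ALDH7A1 (501) on chromosome 5 at 126541841 to 126595390. For ALDH1A1 and ALDH1A3 the table's gene models start further upstream than the RefSeq starts used for the windows printed above, so that all of the ALDH1A1 window and part of the ALDH1A3 window lie inside them.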

How the data were processed

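Per the labels' protocols, total RNA was extracted with TRIzol and sequenced from NEBNext Ultra libraries. Tools named in the submitters' processing notes, with no role given, are DESeq2 1.16.1, featureCounts 1.5.0-p3 and HISAT2 2.0.5. Per the file headers, the deposited values are FPKM computed by the authors, 1 column per library. Whether counting used strand was not given in the sources used here. The table's chromosome accessions belong to GRCh38. Gene lengths, deposited as other columns, were multiplied with FPKM: in each library 100% of values under 300 fragments were within 0.01 of a whole multiple, which gave the fragments per gene.

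Values were analysed as log2(FPKM + 1), which understates changes of low genes. Genes reaching 1 FPKM in 3 or more of the 9 libraries were fitted with limma 3.58.1 in R 4.3.3, with trend and robust options, 1 term per group and all 9 libraries. Errors are model standard errors (SE) or standard deviations (SD), n = 3 per group. The procedure was also run on simulated data in which few genes changed, unlike RSGL against control, so that run is no support for that comparison. Other settings changed the pseudocount, filter, scaling, model options and libraries, and limma-voom was run on fragments. Members and lists were chosen with earlier results of these data known. Named beside the members were the 3 list genes highest in FPKM, those called with a log2 change of at least 1, and the 5 nearest to ALDH1A1. CHDH, RDH13, DHRS4, RXRB and the single cell type markers were named after their values were seen. Sequences are from RefSeq (GRCh38.p14), matched by symbol.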

Additional observations from a re-analysis of the deposited data

How the results depend on the processing

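Of 537 recomputed log2 changes of members, 508 kept their direction and their side of the threshold, and ALDH1A1, ALDH3A1, ALDH3A2, ALDH1B1, ALDH4A1 and ALDH1A3 kept their calls for RSGL against both other groups in every alternative in which they were tested (with a filter of 5 FPKM, ALDH4A1 was not tested and ALDH1A3 passed only through its RSGL libraries, so that its call there is no support). Under RSGL against control the change of ALDH1A1 ranged from -1.40 to -1.35 and that of ALDH3A1 from -1.41 to -1.35. Leaving out 1 library in turn gave 6 to 8 called members for RSGL against control, 6 to 8 for RSGL against BSGL, and 0 for BSGL against control. Limma-voom called 2 members and 31 genes for BSGL against control, where the count over all genes was 11; it was 0 with no filter, a common sum, no trend or robust options, only the groups compared, or a replicate block, and 0 to 8 when 1 library was left out. The cause was not tested. Signs turned for 3 changes that had not passed. With 1 library left out, the change under BSGL ran from -0.044 (without BSGL replicate 2) to 0.111 for ALDH4A1, which was also below 0 without control replicate 2 (-0.009), and from -0.051 to 0.021 (without control replicate 3) for ALDH7A1. For ALDH2 between the compounds it ran from -0.056 to 0.0048, above 0 without BSGL or RSGL replicate 2, and quantile normalization gave 0.00012. Between the compounds, ALDH7A1 lost its call with no filter (adjusted p = 0.0765), and ALDH9A1 with no filter (adjusted p = 0.0761) or quantile normalization (adjusted p = 0.112).

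Same-numbered libraries of different groups did not deviate together (correlations of -0.212 to 0.121, with 1 of 9 over 0.1), so the numbers were not taken to pair them. With the replicate block the members called were 0 for BSGL against control, 7 for RSGL against control and 6 for RSGL against BSGL, and among the members it ended only the calls of ALDH7A1 (adjusted p = 0.0554) and ALDH9A1 (adjusted p = 0.0534) between the compounds. Without the block, 54.8% of all tested genes were called for RSGL against control and 54% for RSGL against BSGL. ALDH1A3 and ALDH4A1 rest on 231 to 460 fragments per library, and small changes of these genes could not be seen at this depth.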
